A study of Mus musculus with 2 samples.

Results

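Chemokines are small secreted proteins that draw leukocytes along a gradient, and chemokine receptors are the G protein-coupled receptors that read them. CC and CXC chemokines are named for the spacing of their first cysteines, and most bind more than 1 receptor. In the injured spinal cord they are known as the signals by which glia, fibroblasts and vessel cells recruit monocytes, neutrophils and lymphocytes from blood. The genes described here are all symbols in the deposited gene list that are made of Ccl, Cxcl, Ccr or Cxcr, a number and at most 1 letter. There were 52 such symbols among 32245, of which 36 were ligands and 16 receptors, and they came from 58 identifiers.

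Nuclei came from spinal cord of wild-type C57BL/6 mice of 6 to 8 weeks, taken on day 7 after a contusion at vertebral level T10. A rod of 5 g and 1 mm diameter was dropped from 6 cm, and all mice had antibiotics around and after surgery. The AEVs group received 5 daily tail-vein injections of extracellular vesicles, which the study's title calls athlete-derived, with 100 µg of vesicle protein in 100 µL of PBS, and the PBS group received 100 µL of PBS alone. Each group is 1 library made from a pool of 3 mice, so no difference below has a replicate check and no test was possible. All intervals are exact 95% intervals for counting error only and leave out the spread between mice and between nuclei. They are too narrow where few nuclei hold most UMIs of a gene.

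After filtering and doublet removal the PBS library held 14023 nuclei with 73085370 unique molecular identifiers (UMIs, counts of single RNA molecules), and the AEVs library held 15549 nuclei with 68103073 UMIs. Median depth was 2600 and 2400 UMIs per nucleus, and 177 barcodes occurred in both deposited libraries. Nuclei were clustered without the chemokine genes, and 13 classes were named "-like" from marker lists. Levels are UMIs per 1000000 UMIs (CPM), over all nuclei or over the nuclei of a class. Ratios are AEVs over PBS, so a positive log2 ratio means a higher level in AEVs. Class boundaries moved with the clustering. At the coarser resolution no cluster was named macrophage-like, lipid-loaded phagocyte-like, T or NK cell-like or mural-like. Its microglia-like cluster held 2024 PBS and 2046 AEVs nuclei, beside 781 and 997 in the main clustering, and also had lipid-loaded phagocyte markers raised. At the finer resolution the microglia-like clusters held 854 and 947 and 773 and 939 nuclei. The lipid-loaded phagocyte-like class there held 355 and 134 nuclei, beside 1190 and 1040 in the main clustering. With the stricter nucleus filter none was named macrophage-like, T or NK cell-like or ependymal-like, and with doublets kept none was T or NK cell-like.

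The members were rare in both libraries. Together they had 15011 UMIs in PBS and 15101 in AEVs, 205 and 222 CPM. At least 20 UMIs over both libraries were counted for 38 members, 27 ligands and 11 receptors, and these are called measured. Another 11 had 1 to 19 UMIs, and Ccl21b, Ccr8 and Cxcl15 had none, which allows up to 3 UMIs in each library. The members with 1 to 19 UMIs were, with PBS and AEVs counts in that order, Ccl1 (6 and 10), Ccl20 (0 and 2), Ccl21c (0 and 1), Ccl22 (6 and 7), Ccl26 (1 and 0), Ccl27b (1 and 0), Ccr3 (1 and 0), Ccr6 (6 and 8), Ccr7 (6 and 0), Cxcl3 (2 and 0) and Cxcr1 (2 and 2).

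Over all nuclei, 4 of the 38 measured members were at least 2-fold higher in AEVs and 8 at least 2-fold lower. Of 21034 genes with at least 20 UMIs, 4.45% were at least 2-fold higher and 2.18% at least 2-fold lower. The higher members were Ccl12, Ccl17, Ccl24 and Ccr1. The lower members were Ccl5, Ccl21a, Cxcl1, Cxcl9, Cxcl10, Ccr2, Cxcr3 and Cxcr6. The median log2 ratio was -0.07 over the ligands and -0.10 over the receptors, beside 0.10 over all genes. Both medians turned positive, to 0.046 and 0.18, when the clusters were given the same mix in both libraries.

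**Figure D1:**
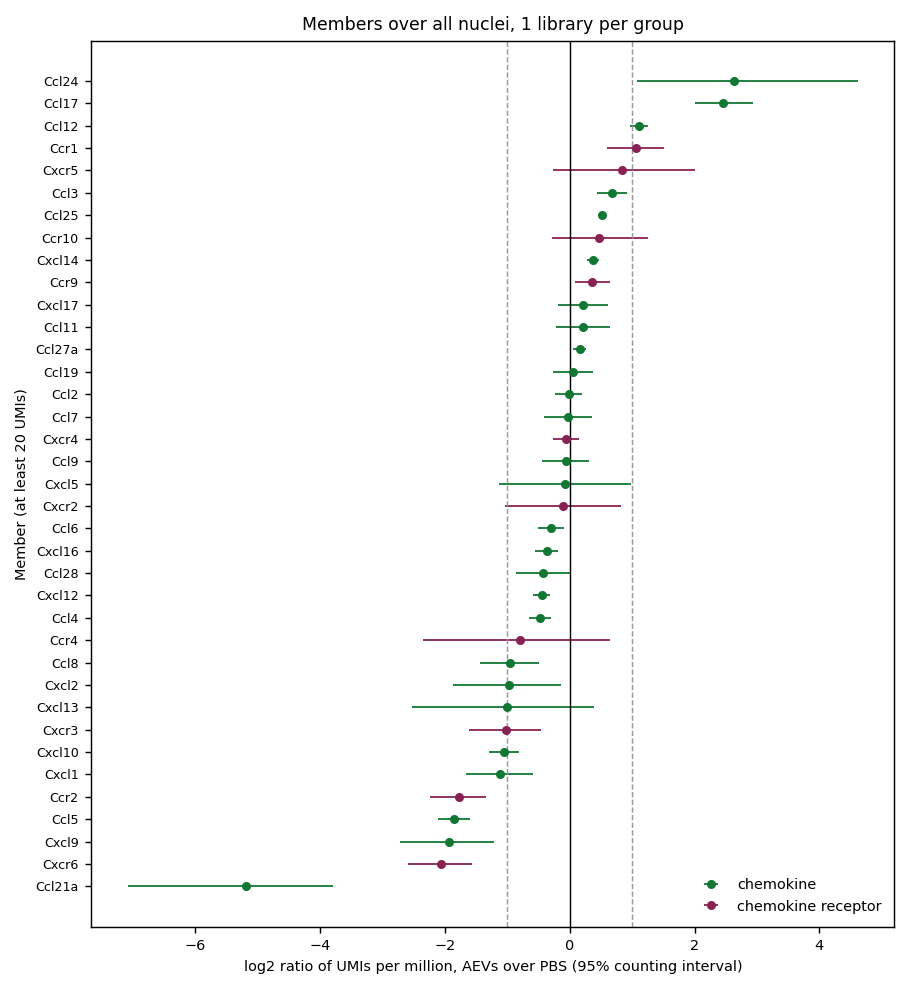
Log2 ratio of each measured member reported singly, over all nuclei (x axis, AEVs over PBS, with 95% counting intervals), chemokines in green and receptors in purple, 1 library per group. Dashed lines mark 2-fold. Ccl21a lies farthest left at -5.18 and Ccl24 farthest right at 2.63, with an interval from 1.08 to 4.62.

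Several of the lower totals went together with fewer nuclei of the class that held most of the UMIs. T or NK cell-like nuclei made up 1.01% (0.854 to 1.19) of PBS and 0.199% (0.136 to 0.283) of AEVs nuclei. Macrophage-like nuclei made up 1.47% (1.28 to 1.68) and 0.720% (0.593 to 0.866), and fibroblast-like nuclei 7.15% (6.72 to 7.58) and 3.53% (3.25 to 3.83). With the same mix of clusters in both libraries, Cxcr6 moved from a log2 ratio of -2.06 to -0.87, Ccl5 from -1.85 to -0.90, Ccr2 from -1.78 to -1.07 and Cxcr3 from -1.03 to 0.20. Cxcl10 stayed at -1.01 beside -1.05, and Ccl12 at 1.07 beside 1.11.

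**Figure D2:**
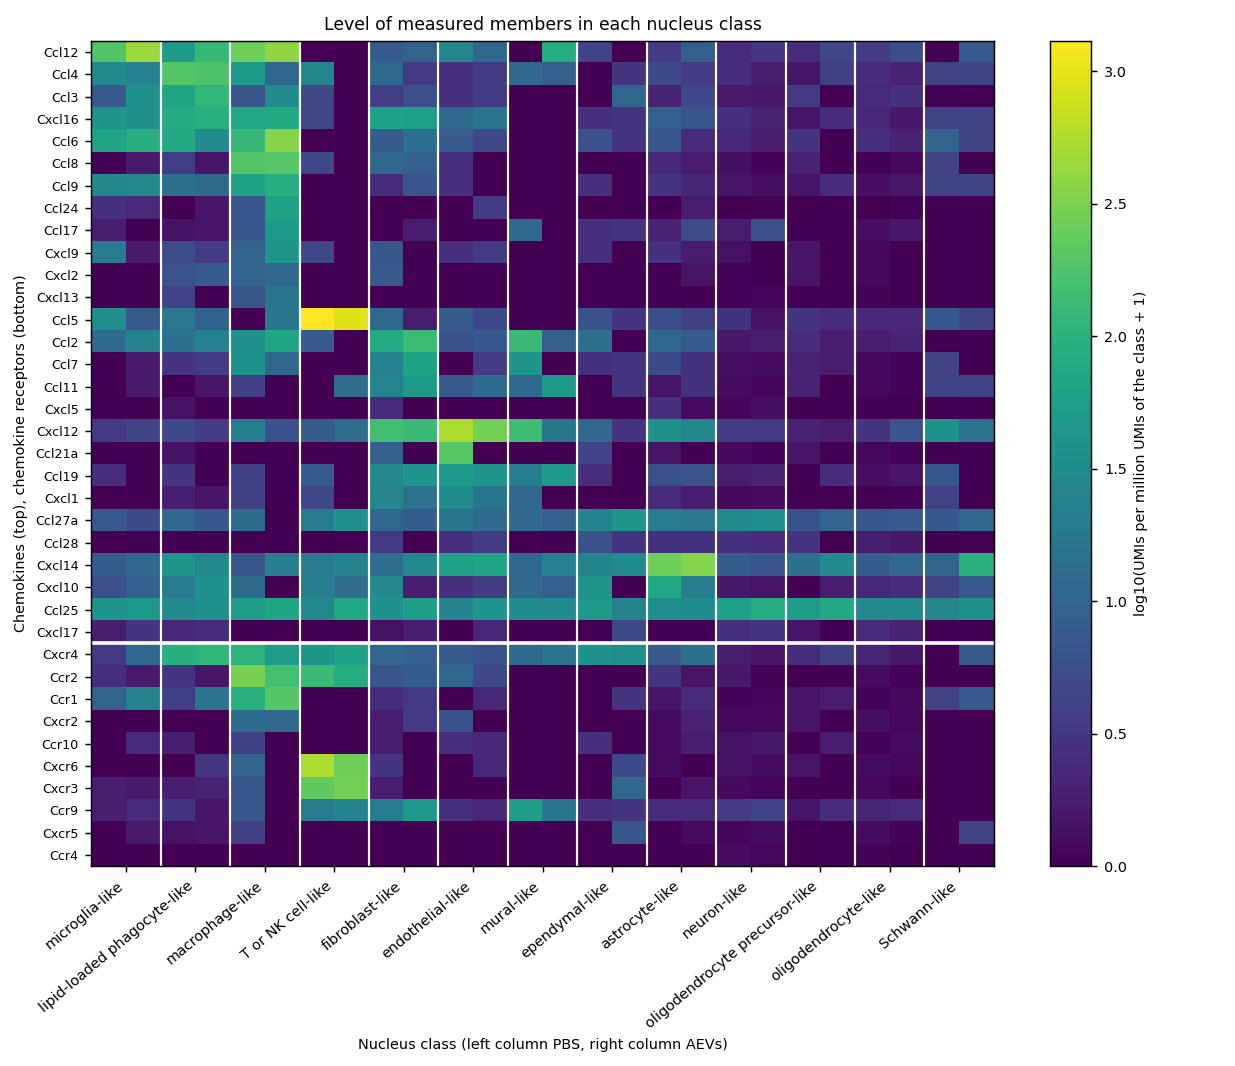
Level of the measured members that are reported singly (rows, ligands above the white line, receptors below) in the 13 nucleus classes (pairs of columns, PBS left and AEVs right), as log10 of CPM plus 1. Ccl5 in T or NK cell-like nuclei is the brightest cell, with 1305 CPM in PBS, and Ccl25 and Ccl27a are spread over nearly all classes.

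Ccl12, Ccl2, Ccl7 and Ccl8 are ligands of Ccr2, the receptor that brings monocytes into tissue. Ccl12 (chromosome 11, 82101845 to 82103400, plus strand, mm10, GENCODE M21) had 587 UMIs in PBS and 1181 in AEVs over all nuclei. Most AEVs UMIs lay in microglia-like nuclei, the macrophages native to nervous tissue, with 651 of them beside 231 in PBS. That is 437 CPM in AEVs and 185 CPM in PBS, a log2 ratio of 1.24 (1.02 to 1.46). The share of microglia-like nuclei with at least 1 Ccl12 UMI was 11.9% (93 of 781) in PBS and 23.7% (236 of 997) in AEVs. Among the 688 PBS and 886 AEVs microglia-like nuclei with at least 1000 UMIs, each thinned to 1000, it was 9.88% and 18.7%, with the shallower nuclei left out. The highest single nucleus held 13 UMIs in PBS and 49 in AEVs, so neither total rests on 1 nucleus. In microglia-like nuclei the log2 ratio of Ccl12 lay between 1.08 and 1.46 in all 11 other settings. The class was wider at the coarser and finer resolutions, so those settings do not cover the same nuclei. Oligodendrocyte-like nuclei, a class that should lack Ccl12, had 2.61 CPM in PBS and 4.46 CPM in AEVs.

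Ccl12 was also higher in lipid-loaded phagocyte-like nuclei, a Gpnmb-led myeloid class, with 122 and 233 UMIs (49.0 and 122 CPM, log2 ratio 1.32, interval 0.997 to 1.65). That value was -0.84 at the finer clustering resolution, where the class held 355 PBS and 134 AEVs nuclei, and the cause was not tested. In macrophage-like nuclei Ccl12 had 91 and 77 UMIs (264 and 395 CPM), a log2 ratio of 0.58 (0.12 to 1.03). The order of the classes therefore differed between libraries, with macrophage-like nuclei highest in PBS and microglia-like nuclei highest in AEVs. In AEVs the levels were close, 437 CPM in microglia-like and 395 CPM in macrophage-like nuclei, the latter on 77 UMIs. With the libraries pooled, the highest class was microglia-like. It was macrophage-like at Leiden resolution 2 and with the chemokine genes among the clustering genes.

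Ccl2 and Ccl7, which both attract monocytes, were highest per UMI in fibroblast-like nuclei when the libraries were pooled. Ccl2 had 202 UMIs there in PBS, spread over 55 nuclei, and 169 in AEVs, in 19 nuclei of which 1 alone held 95. Its log2 ratio was 0.75 (0.44 to 1.05), and -0.26 without the nucleus with most UMIs in each library. Ccl7 had 58 UMIs in PBS and 76 in AEVs, 47 of them in 1 nucleus, and its log2 ratio of 1.39 (0.88 to 1.91) became 0.25 without those nuclei. At the finer resolution these fibroblast-like nuclei fell mainly into 3 clusters that the libraries filled unequally: 485 PBS and 134 AEVs nuclei in a cluster led by Col1a1, 301 and 165 in one led by Slc47a1, and 213 and 249 in one led by Slc6a20a. Ccl2 was at 103 and 8.53 CPM in the first, 24.0 and 35.6 in the second and 139 and 292 in the third, so its direction was not the same in all 3. The counts of nuclei went the other way: 5.49% of PBS and 3.46% of AEVs fibroblast-like nuclei had a Ccl2 UMI. Of the fibroblast-like nuclei with Ccl2, 14 of 55 in PBS and 8 of 19 in AEVs also had Ccl7. Ccl8, an attractant of monocytes and eosinophils, had 66 and 39 UMIs in macrophage-like nuclei, in 8 nuclei of each library. A single nucleus held 47 of the PBS and 29 of the AEVs UMIs, and the levels were 191 and 200 CPM.

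**Figure D3:**
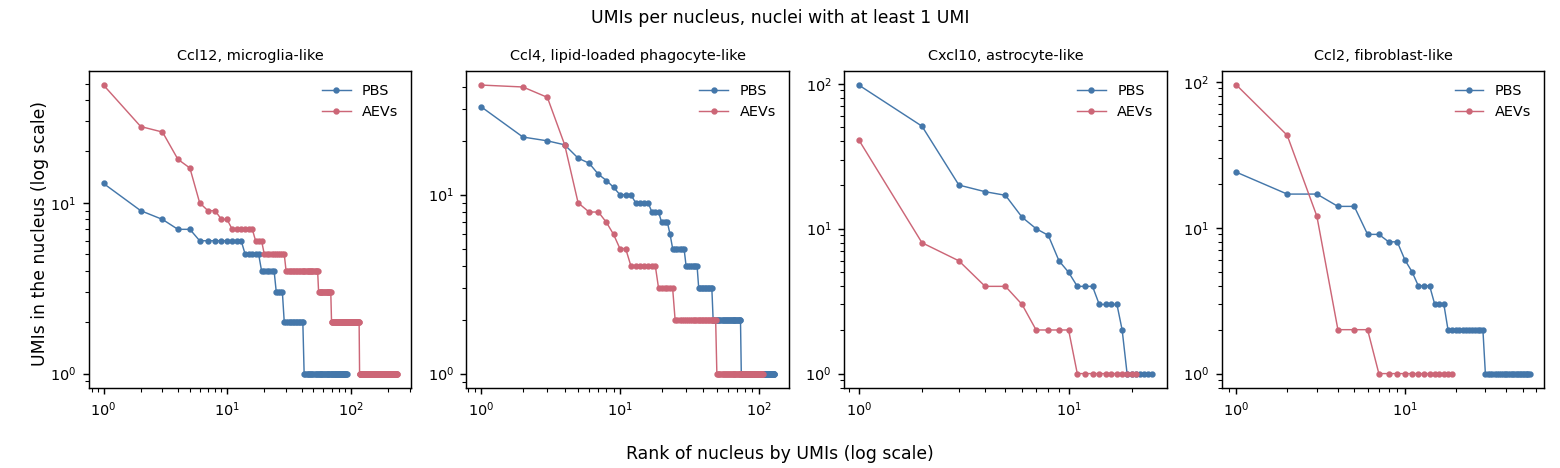
UMIs of a chemokine in each nucleus that had any (y axis, log scale) against the rank of that nucleus (x axis, log scale), PBS blue and AEVs red. Ccl12 in microglia-like nuclei runs above PBS at every rank in AEVs, while for Ccl2 in fibroblast-like nuclei the AEVs curve starts higher at 95 UMIs and ends at 19 nuclei beside 55.

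Ccl3, Ccl4, Ccl5, Ccl6 and Ccl9 are CC chemokines that attract monocytes, macrophages and T cells. Ccl3 and Ccl4 (chromosome 11, 83647844 to 83649355 on the minus strand and 83662584 to 83664683 on the plus strand) are macrophage inflammatory proteins that lie next to each other. In lipid-loaded phagocyte-like nuclei Ccl3 had 166 UMIs in PBS and 219 in AEVs, 66.7 and 115 CPM, with a log2 ratio of 0.79 (0.49 to 1.08). Ccl4 had 475 and 337 UMIs in the same class, 191 and 177 CPM, with a log2 ratio of -0.11 (-0.31 to 0.09). The counting intervals of the 2 neighbours did not overlap, but they leave out the spread between nuclei. Over 10 other settings Ccl3 lay between 0.69 and 1.87, and Ccl4 between -0.20 and 0.26, with the other sign in 4. Over the immune sub-clusters described below, Ccl4 went both ways in this class. It was at 414 and 566 CPM in the 271 PBS and 96 AEVs nuclei of sub-cluster 5. In the 157 and 15 nuclei of sub-cluster 11 it was at 203 and 36.7 CPM, and in the 222 and 386 of sub-cluster 4 at 48.9 and 46.3. The 10 highest nuclei held 35.4% of the Ccl4 UMIs in PBS and 52.8% in AEVs. Of nuclei with Ccl3 in this class, 48 of 108 in PBS and 38 of 132 in AEVs also had Ccl4. In microglia-like nuclei Ccl3 had 8 UMIs in PBS and 55 in AEVs, each AEVs nucleus with at most 3, a log2 ratio of 2.53 (1.45 to 3.81). That ratio stayed positive in the other settings but lay between 0.66 and 3.84. At the finer resolution, where the microglia-like class was wider, both genes had their highest level in that class.

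Ccl5, made by activated T cells and NK cells, was at 1305 CPM in T or NK cell-like nuclei of PBS (368 UMIs in 142 nuclei) and 909 CPM in AEVs (75 UMIs in 31 nuclei). Its log2 ratio there was -0.52 (-0.90 to -0.16), smaller than the -1.85 over all nuclei. The summed level of the 10 T or NK cell markers in this class was 6834 CPM in PBS and 3868 CPM in AEVs, and its part in the Ccl5 value was not tested. Ccl6, a myeloid chemokine of mouse, was lower in lipid-loaded phagocyte-like nuclei, with 188 and 59 UMIs (75.5 and 30.9 CPM, log2 ratio -1.29, interval -1.73 to -0.86). At Leiden resolution 2, where the class held 355 PBS and 134 AEVs nuclei, that value was -0.25, and the cause was not tested. The libraries filled the immune sub-clusters described below unequally in this class. Ccl6 was at 36.7 and 14.9 CPM in the 222 PBS and 386 AEVs nuclei of sub-cluster 4. It was at 132 and 31.5 CPM in the 271 and 96 of sub-cluster 5, and at 51.8 and 65.4 in the 247 and 54 of sub-cluster 7. In macrophage-like nuclei Ccl6 was higher, with 41 and 69 UMIs (119 and 354 CPM, log2 ratio 1.57, interval 0.99 to 2.17). In that class the summed dendritic cell markers went from 9264 CPM in PBS to 4379 in AEVs and erythroid markers from 470 to 15938, and their part in the macrophage-like values was not tested. Ccl6 overlaps E230016K23Rik on the opposite strand over 5206 bases, so its UMIs cannot be assigned without strand. In microglia-like nuclei Ccl6 had 80 and 134 UMIs, a log2 ratio of 0.49 (0.08 to 0.91) that lay between -0.42 and 0.51 in the other settings. Ccl9 had log2 ratios of 0.60 (-0.39 to 1.58) in macrophage-like and 0.09 (-0.60 to 0.80) in microglia-like nuclei, both intervals including 0.

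When only the immune nuclei were clustered again, 4 sub-clusters with microglia-like nuclei held unequal numbers of the libraries. They also took in nuclei that the first clustering had named lipid-loaded phagocyte-like, so they are not parts of the microglia-like class. Sub-cluster 10 had 105 PBS and 684 AEVs nuclei, and sub-cluster 8 had 94 and 322. Sub-cluster 9 had 464 PBS and 210 AEVs nuclei, and sub-cluster 11 had 277 and 38. Ccl12 was highest in sub-cluster 10, with 780 CPM in PBS and 592 CPM in AEVs, and in sub-cluster 8 it was at 373 and 269 CPM. In sub-cluster 9 it was at 122 and 245 CPM. Over the nuclei first named microglia-like alone, Ccl12 was at 691 and 534 CPM in the 96 PBS and 631 AEVs nuclei of sub-cluster 10. It was at 122 and 243 CPM in the 463 and 209 nuclei of sub-cluster 9, at 566 and 661 in the 32 and 73 of sub-cluster 8, and at 89.6 and 82.8 in the 120 and 23 of sub-cluster 11. The class thus had both more AEVs nuclei in a sub-cluster high in both libraries and a higher level in sub-cluster 9, and the part of each was not tested. Ccl4 in sub-cluster 8, led by Gpr84, Tlr2 and Icam1, had no UMI in PBS and 154 UMIs in 21 nuclei of AEVs (340 CPM). Of those 154, 142 lay in nuclei first named lipid-loaded phagocyte-like and 12 in microglia-like nuclei. In sub-cluster 5, a lipid-loaded phagocyte-like group led by Ch25h, Ccl4 had 245 UMIs (413 CPM) in PBS and 108 (566 CPM) in AEVs, and Ccl3 was at 143 and 414 CPM.

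**Figure D4:**
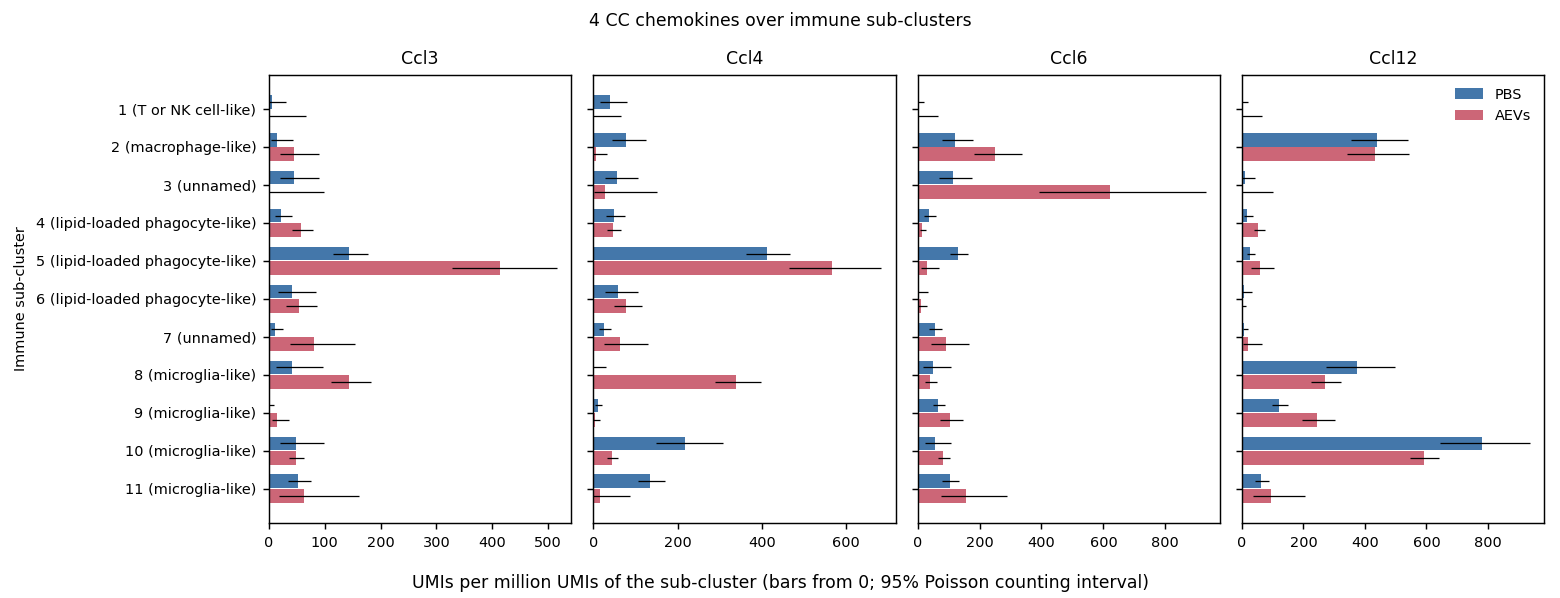
Levels of Ccl3, Ccl4, Ccl6 and Ccl12 (x axis, CPM of the sub-cluster, with 95% Poisson counting intervals) in 11 immune sub-clusters (y axis), PBS blue and AEVs red. Ccl12 is highest in sub-cluster 10 of both libraries, and Ccl4 in sub-cluster 8 has a bar in AEVs only, with no UMI among 94 PBS nuclei.

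At a finer resolution, chosen after the data were seen, 1 sub-cluster of 9 PBS and 57 AEVs nuclei was led by Icam1, Tlr2, Cd83 and Nfkbia, genes of NF-kappaB signalling among them. In AEVs it held 114 Ccl4, 78 Ccl12 and 35 Ccl3 UMIs, and in PBS 18 Ccl12 UMIs and none of the other pair. Another sub-cluster, microglia-like and led by the interferon targets Ifit2 and Rsad2, had 49 PBS and 95 AEVs nuclei. It held 71 and 241 Ccl12 UMIs (712 and 1431 CPM) and 16 and 44 Cxcl10 UMIs (160 and 261 CPM).

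Cxcl9 and Cxcl10 are interferon-induced ligands of Cxcr3, the receptor of activated T cells. Cxcl10 (chromosome 5, 92346638 to 92348889, minus strand) was highest in astrocyte-like nuclei of PBS and in lipid-loaded phagocyte-like nuclei of AEVs. In astrocyte-like nuclei it had 279 UMIs in PBS and 85 in AEVs, 70.6 and 20.1 CPM, a log2 ratio of -1.81 (-2.18 to -1.46). A Cxcl10 UMI was found in 25 of 952 PBS nuclei, 2.63% (1.71 to 3.85), and 21 of 1150 AEVs nuclei, 1.83% (1.13 to 2.78). With nuclei thinned to the same depth and shallower ones left out, the share was 1.61% of 808 PBS and 0.615% of 975 AEVs nuclei. The UMIs sat in few nuclei of the class: the 10 highest nuclei held 88.2% in PBS and 87.1% in AEVs. The top nuclei held 98 and 41 UMIs. Without the top nucleus of each library the log2 ratio was -2.14, and over the other settings it lay between -2.10 and -1.003. In fibroblast-like nuclei Cxcl10 had 70 UMIs in PBS, in 19 nuclei, and 1 in AEVs, a ratio of 0.0287 (interval on the log2 scale -10.4 to -2.60). In ependymal-like nuclei it had 25 UMIs in PBS and none in AEVs, but 23 of the 25 were in 1 nucleus.

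In lipid-loaded phagocyte-like nuclei the ratio had the opposite sign. Cxcl10 had 44 UMIs in 8 PBS nuclei and 72 UMIs in 14 AEVs nuclei, 17.7 and 37.8 CPM, a log2 ratio of 1.10 (0.54 to 1.67). With the stricter nucleus filter it was -1.51. Cxcl10 lies within Art3 on the opposite strand (2252 bases shared), and whether the counting used strand is not given in the sources used here. Cxcl9 had 82 UMIs in PBS and 20 in AEVs over all nuclei, a log2 ratio of -1.93 (-2.72 to -1.21). In microglia-like nuclei it had 23 UMIs in 6 nuclei of PBS and 1 UMI in AEVs. Cxcl9 in macrophage-like nuclei of AEVs, 41.0 CPM, was the highest of any class in that library.

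Genes of the interferon response were counted beside these ligands. In microglia-like nuclei 17 of 18 measured list members were higher in AEVs, with a median log2 ratio of 1.18, beside 57.1% and 0.08 over all genes of the class. In lipid-loaded phagocyte-like nuclei 20 of 20 were higher, with a median of 1.14, beside 54.9% and 0.05. In astrocyte-like nuclei 17 of 20 were higher, with a median of 0.47, beside 55.0% and 0.04, while Cxcl10 was lower in the same class. Rtp4 had a log2 ratio of 1.48 (1.08 to 1.90) in astrocyte-like nuclei, and Gbp2, a target of interferon gamma, -0.49 (-0.99 to -0.0045). Over all nuclei Gbp2 was at -0.55 (-0.82 to -0.29) and Iigp1, an interferon-gamma-induced GTPase, at -0.62 (-0.83 to -0.42), whereas Oasl2, an antiviral factor, was at 1.09 (0.98 to 1.21).

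Cxcl1, Cxcl2 and Cxcl5 are ligands of Cxcr2, the receptor that recruits neutrophils. Cxcl1 had 102 and 44 UMIs over all nuclei, a log2 ratio of -1.11 (-1.66 to -0.59). In fibroblast-like nuclei it had 63 and 17 UMIs, -0.89 (-1.75 to -0.09), and in endothelial-like nuclei, the cells of blood vessels, 19 and 12. Cxcl2 had 38 and 18 UMIs, -0.98 (-1.87 to -0.13), in 18 and 6 nuclei, and -1.998 without the top nucleus of each library. Cxcl5 had 18 and 16 UMIs. Cxcr2 itself had 23 and 20 UMIs, -0.10 (-1.04 to 0.83), a difference not detectable at this depth. Immediate early genes, the fast targets of growth factor and stress signals, were lower beside Cxcl1: 10 of 14 measured were at least 2-fold lower in fibroblast-like nuclei, with a median log2 ratio of -1.71, beside 4.3% and 0.08 over all genes of the class. In endothelial-like nuclei they were 8 of 10, with a median of -1.34, beside 2.92% and 0.06.

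Promoter sequences are shown for 4 of these ligands and were searched for motifs of interferon and NF-kappaB signalling. No link between a motif and a ratio was tested. Each run is the 250 bases before the RefSeq start on GRCm38.p6 (mm10), read 5′ to 3′ on the strand of the gene. Capitals mark matches on either strand to the core of the interferon-stimulated response element (GAAA, any 2 bases, GAAA) or to the NF-kappaB consensus. They cover chr5:92348890-92349139 for Cxcl10 and chr5:92328080-92328329 for Cxcl9, both minus strand, and chr5:90890995-90891244 for Cxcl1 and chr11:82101595-82101844 for Ccl12, both plus strand.
Cxcl10: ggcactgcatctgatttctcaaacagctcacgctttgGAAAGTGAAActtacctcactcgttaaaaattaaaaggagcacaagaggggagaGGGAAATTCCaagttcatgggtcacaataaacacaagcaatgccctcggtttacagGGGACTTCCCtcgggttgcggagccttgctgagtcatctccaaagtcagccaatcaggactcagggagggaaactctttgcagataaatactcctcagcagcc
Cxcl9: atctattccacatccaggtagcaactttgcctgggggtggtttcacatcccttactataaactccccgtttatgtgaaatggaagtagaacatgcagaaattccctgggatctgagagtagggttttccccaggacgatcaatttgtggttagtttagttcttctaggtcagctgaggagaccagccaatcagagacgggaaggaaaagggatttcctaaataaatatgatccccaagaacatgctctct
Cxcl1: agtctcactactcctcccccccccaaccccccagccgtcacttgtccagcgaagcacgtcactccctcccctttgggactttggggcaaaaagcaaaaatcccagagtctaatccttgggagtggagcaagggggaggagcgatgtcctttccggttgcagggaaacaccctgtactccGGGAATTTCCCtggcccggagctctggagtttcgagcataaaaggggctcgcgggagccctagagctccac
Ccl12: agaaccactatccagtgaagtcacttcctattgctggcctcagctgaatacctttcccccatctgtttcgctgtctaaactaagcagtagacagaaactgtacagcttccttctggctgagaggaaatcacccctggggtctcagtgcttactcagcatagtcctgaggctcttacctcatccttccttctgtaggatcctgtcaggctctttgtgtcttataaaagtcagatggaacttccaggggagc

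The Cxcl10 window held 1 match to the interferon element and 2 to the NF-kappaB consensus, and the Cxcl1 window held overlapping matches to the NF-kappaB consensus. No match was found in the windows of Cxcl9 and Ccl12. Among 32851 RefSeq promoters, 2.98% held the interferon element and 3.90% the NF-kappaB consensus in this window. A promoter was listed for 38 member symbols, 45 windows in all. The interferon element was found in Ccl19, Cxcl10 and Cxcl14, and the NF-kappaB consensus in Ccl9, Ccl20, Ccr3, Ccr6, Cxcl1, Cxcl2, Cxcl3 and Cxcl10. Another motif of interferon signalling, GAS (TTC, any 3 bases, GAA), was searched as well. It was held by 7.02% of the 32851 promoters and, among the members, was found in Ccl17, Ccr6 and Cxcl14.

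Cxcl12, which holds cells through Cxcr4, was highest in endothelial-like nuclei in both libraries. It had 319 UMIs in 88 of 230 PBS nuclei and 230 UMIs in 74 of 343 AEVs nuclei, 539 and 289 CPM, a log2 ratio of -0.90 (-1.15 to -0.65). The top nuclei held 23 and 18 UMIs, and the value lay between -0.96 and -0.70 in all 11 other settings. Fibroblast-like nuclei, the second class, had 360 and 165 UMIs, 143 and 132 CPM, a log2 ratio of -0.12 (-0.40 to 0.15). The counting interval of the fibroblast-like value did not overlap that of the endothelial-like value, though both leave out the spread between nuclei. Within the finer fibroblast-like clusters Cxcl12 was not uniform. It was at 213 and 119 CPM in the Col1a1-led cluster, on 197 and 28 UMIs. In the Slc47a1-led cluster it was at 46.1 and 51.5 CPM, and in the Slc6a20a-led cluster at 200 and 217 CPM. Ackr1, a decoy receptor of venule endothelium that binds many chemokines, was at 661 and 835 CPM in endothelial-like nuclei, a log2 ratio of 0.34. Ackr3, which binds and removes Cxcl12, was at 70.9 and 55.3 CPM there, on 42 and 44 UMIs.

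Ccl19 and Ccl21a are ligands of Ccr7, which guides dendritic cells and T cells into lymph vessels and lymph nodes. Ccl21a had 156 UMIs in PBS and 4 in AEVs over all nuclei, a log2 ratio of -5.18 (-7.08 to -3.80). Of the PBS UMIs, 118 lay in 4 endothelial-like nuclei, 65 of them in 1, and no endothelial-like nucleus of AEVs had any, a level at least 52.9-fold lower against 3 UMIs. The same 4 nuclei held 16 of the 17 Mmrn1, 11 of the 13 Lyve1, 5 of the 16 Prox1, 6 of the 21 Flt4, 14 of the 28 Reln and none of the 6 Pdpn UMIs of endothelial-like nuclei in PBS. These genes of lymphatic vessels were chosen after the data were seen. In AEVs the class had 0 Mmrn1, 8 Lyve1, 20 Prox1, 25 Flt4, 22 Reln and 5 Pdpn UMIs. Ccl19 was nearly equal, with 170 and 164 UMIs over all nuclei, a log2 ratio of 0.05 (-0.27 to 0.37). Ccl19 had log2 ratios of -0.18 (-0.97 to 0.61) in endothelial-like and 0.54 (-0.01 to 1.07) in fibroblast-like nuclei. Ccl19, Ccl21a and Ccl27a each have more than 1 identifier in the gene list, summed here, and Ccl19 and Ccl21a overlap 4930578G10Rik on the opposite strand, so their counts are uncertain.

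Cxcl14, a chemokine of less settled receptor, was highest in astrocyte-like nuclei, with 1049 UMIs in 462 PBS nuclei and 1453 in 559 AEVs nuclei. Its level was 265 and 344 CPM, a log2 ratio of 0.37 (0.26 to 0.49), and 48.5% and 48.6% of astrocyte-like nuclei had a UMI. Cxcl14 was thus higher and Cxcl10 lower in AEVs in this class. Of the PBS nuclei with Cxcl10, 13 of 25 had Cxcl14, and in AEVs 10 of 21.

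Ccl25, Ccl27a, Ccl28 and Cxcl17 were found mostly in neuron-like nuclei, which hold most of the RNA. Ccl25, best known from thymus and gut, had 2603 and 3751 UMIs there, 55.6 and 86.2 CPM, a log2 ratio of 0.63 (0.56 to 0.70). In neuron-like nuclei the value lay between 0.53 and 0.78 in the other settings. Oligodendrocyte-like nuclei had 28.4 and 30.03 CPM of Ccl25, a log2 ratio of 0.08 (-0.14 to 0.30). Ccl27a, a skin chemokine, had 1360 and 1443 UMIs in neuron-like nuclei, 0.19 (0.08 to 0.30). Ccl28 had 83 and 60 UMIs, -0.36 (-0.87 to 0.13), and Cxcl17 79 and 87, 0.24 (-0.21 to 0.70). Ccl25 shares 204 bases with Elavl1, and Cxcl17 shares 12834 bases with 4732471J01Rik, each on the opposite strand, so the origin of these UMIs cannot be told apart without strand.

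Ccl17, a ligand of the T cell receptor Ccr4, had 48 UMIs in 44 PBS nuclei and 246 in 222 AEVs nuclei, a log2 ratio of 2.46 (2.01 to 2.94). It is best known from dendritic cells, and its levels by class were chosen for description after its values were seen. Neuron-like nuclei held 34 and 209 of these UMIs, 0.726 and 4.80 CPM, and the level was higher in AEVs in 10 of 11 neuron-like clusters. Astrocyte-like nuclei had 4 and 18 UMIs and oligodendrocyte-like nuclei 4 and 7. Macrophage-like nuclei had the highest level in AEVs, 46.2 CPM, but all 9 UMIs lay in 1 nucleus. Ccl17 (chromosome 8, 94810453 to 94812036, plus strand) overlaps no other annotated gene. Ccl24, an eosinophil attractant, had 4 UMIs in PBS and 23 in AEVs, a log2 ratio of 2.63 (1.08 to 4.62), and 12 of the AEVs UMIs lay in macrophage-like nuclei. Ccl11, another eosinophil attractant, had 63 and 62 UMIs in fibroblast-like nuclei, 25.1 and 49.5 CPM, a log2 ratio of 0.98 (0.45 to 1.51). Within the finer fibroblast-like clusters it went both ways, at 5.41 and 25.6 CPM in the Col1a1-led, 33.1 and 93.1 in the Slc47a1-led and 42.8 and 17.6 in the Slc6a20a-led cluster.

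Among the CC receptors, Ccr2 was highest in macrophage-like nuclei, with 102 UMIs in 41 PBS nuclei and 30 in 16 AEVs nuclei. That is 296 and 154 CPM, a log2 ratio of -0.94 (-1.58 to -0.34), and the value stayed between -1.37 and -0.63 in the other settings that kept the class. Markers of dendritic cells, which also carry Ccr2, were lower as well. Their summed level in macrophage-like nuclei was 9264 CPM in PBS and 4379 CPM in AEVs, and 5 of the 6 measured were at least 2-fold lower, beside 8.08% of all genes of the class. Their part in the Ccr2 value was not tested. Among the finer immune sub-clusters, Ccr2 had 52 PBS and 16 AEVs UMIs in a group of 40 and 17 nuclei, 989 and 599 CPM. That group was named neutrophil-like, with 8 neutrophil and 7 monocyte markers raised and F13a1 and Vcan among its leading genes. Which of these cell types held the Ccr2 UMIs was not tested. In a dendritic cell-like group of 45 and 12 nuclei Ccr2 was at 350 and 353 CPM.

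Ccr1, another receptor of monocytes and macrophages, had 63 and 122 UMIs over all nuclei. In macrophage-like nuclei Ccr1 had 32 and 38 UMIs, 92.8 and 195 CPM, a log2 ratio of 1.07 (0.35 to 1.79). Ccr9, the receptor of Ccl25, had 49 and 60 UMIs in fibroblast-like nuclei, 19.5 and 48.0 CPM, a log2 ratio of 1.30 (0.73 to 1.87). In the finer clusters it was at 54.8 and 110 CPM in the Slc6a20a-led cluster, on 32 and 56 UMIs, and at 14.0 and 5.94 CPM in the Slc47a1-led one, on 14 and 3. Ccr9 overlaps Lztfl1 over 23282 bases and Slc6a20a over 447 bases, both on the opposite strand, so these UMIs cannot be assigned without strand. Ccr4 (13 and 7 UMIs) and Ccr10 (27 and 35 UMIs) had intervals that included no difference.

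Among the CXC receptors, Cxcr3 and Cxcr6 marked T or NK cell-like nuclei. Cxcr3 had 64 UMIs in PBS and 24 in AEVs there, 227 and 291 CPM, a log2 ratio of 0.36 (-0.38 to 1.06). Cxcr6, carried by tissue-resident T cells, had 151 and 22 UMIs, 536 and 267 CPM, a log2 ratio of -1.01 (-1.72 to -0.35). The summed T or NK cell markers of this class were also lower, at 6834 and 3868 CPM. Their part in the Cxcr6 value was not tested. The AEVs class has 31 nuclei, and 14 of them had Cxcr3 and 14 Cxcr6. Of 51 PBS nuclei with Cxcr3, 30 also had Cxcr6. Cxcr6 overlaps Fyco1 on the opposite strand. Cxcl16, the ligand of Cxcr6, was highest in lipid-loaded phagocyte-like nuclei, with 205 and 180 UMIs, 82.3 and 94.4 CPM, a log2 ratio of 0.20 (-0.10 to 0.49). Cxcr4 was highest in the same class when the libraries were pooled, with 219 and 209 UMIs, 87.9 and 110 CPM, a log2 ratio of 0.32 (0.04 to 0.60) that was -0.62 at Leiden resolution 2. An unnamed immune sub-cluster of 259 PBS and 56 AEVs nuclei had 92 and 13 Cxcr4 UMIs, 176 and 117 CPM. Cxcr5 (12 and 20 UMIs) and its ligand Cxcl13 (15 and 7) were too rare for a class value.

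**Figure D5:**
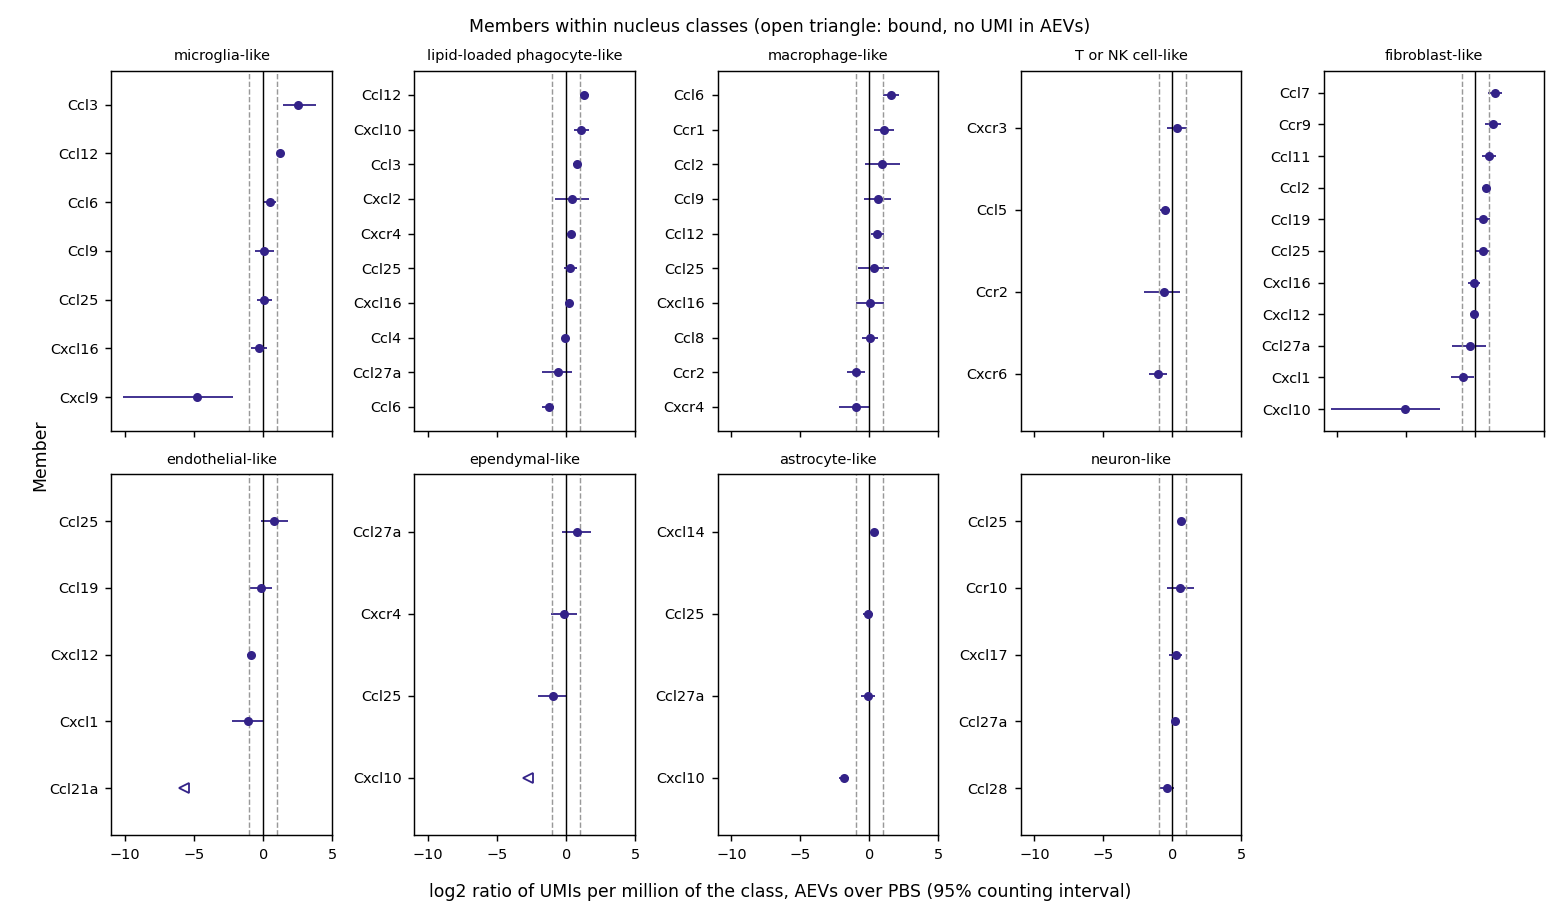
Log2 ratios within classes (x axis, AEVs over PBS, with 95% counting intervals) for members reported singly, with at least 20 UMIs in the class and a pooled level at least 0.25 of that in their highest class. An open triangle is a bound where AEVs had no UMI; Cxcl10 lies left of 0 in astrocyte-like, fibroblast-like and ependymal-like panels and right of 0 in the lipid-loaded phagocyte-like panel.

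Counted by class, the members that met the same UMI and level limits were 8 in microglia-like nuclei, of which 2 were at least 2-fold higher in AEVs and 1 lower, beside 5.42% and 2.02% of all genes of that class. In lipid-loaded phagocyte-like nuclei 2 of 10 were higher and 1 lower, beside 4.06% and 3.8%. In macrophage-like nuclei 2 of 11 were higher and none lower, beside 5.16% and 8.08%. In fibroblast-like nuclei 2 of 11 were higher and 1 lower, beside 4.94% and 4.3%. In endothelial-like nuclei none of 5 was higher and 2 were lower, beside 4.52% and 2.92%. In T or NK cell-like nuclei none of 5 was higher and 2 were lower, beside 5.86% and 11.8%. In astrocyte-like and ependymal-like nuclei 1 of 4 each was lower, beside 1.41% and 4.22%, and none was higher, beside 3.34% and 4.39%. None of 5 members in neuron-like nuclei passed 2-fold, beside 3.94% higher and 2.77% lower of all genes. The same held for 2 members in oligodendrocyte-like nuclei, beside 6.81% and 2.16%, and for 1 in oligodendrocyte precursor-like nuclei, beside 4.08% and 4.2%. A member that met the limit through 1 library only, such as Ccl21a, had to differ, so these counts describe the members and support nothing further.

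The chemokine system also holds genes outside the name pattern. Cx3cl1, the membrane-bound chemokine of neurons, was at 94.99 and 91.5 CPM in neuron-like nuclei, and its receptor Cx3cr1 at 1073 and 1041 CPM in microglia-like nuclei. Both had log2 ratios near 0, -0.05 and -0.04. Xcl1, made by T and NK cells, had 49 and 7 UMIs over all nuclei, and Pf4, a platelet and macrophage chemokine, 163 and 120. Cmklr1, the chemerin receptor, was higher in macrophage-like nuclei, with 17 and 30 UMIs, a log2 ratio of 1.64. Its ligand Rarres2 was lower in ependymal-like nuclei, the lining of the central canal, with 890 and 357 UMIs, 1460 and 702 CPM, a log2 ratio of -1.06. Dpp4, a protease that trims chemokines, had 488 and 161 UMIs over all nuclei. Among the 16 genes listed, 13 were measured over all nuclei, none was at least 2-fold higher and 3 were at least 2-fold lower, beside 4.45% and 2.18% of all genes.

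Signalling genes downstream of the receptors were counted as well. Of 30 genes, none was at least 2-fold higher over all nuclei and 1 was lower, beside 4.45% and 2.18% of all genes. The lower gene was Rgs1, an inhibitor of receptor signalling, with 1038 and 471 UMIs (log2 ratio -1.04). In microglia-like nuclei none of 29 measured passed 2-fold, beside 5.42% higher and 2.02% lower of all genes of the class. Their median was -0.12, beside 0.08 over all genes of the class. NF-kappaB pathway genes and targets had a median of 0.49 in microglia-like nuclei, with 13 of 17 higher, beside 0.08 and 57.1% over all genes of the class, Tnf at 1 and 21 UMIs among them. Adhesion molecules for leukocyte passage through endothelium had a median of 0.18 in endothelial-like nuclei, where Vcam1, the ligand of leukocyte integrins, was at 250 and 571 CPM (log2 ratio 1.19). Genes that build or carry the glycosaminoglycans on which chemokines rest had a median of -0.07 over all nuclei, beside 0.10 over all genes. None of 18 passed 2-fold, beside 4.45% higher and 2.18% lower of all genes.

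For some pairs from a list of known ligands and receptors, the classes with the highest pooled level were set side by side. For Cxcl16 and Cxcr6 they were lipid-loaded phagocyte-like and T or NK cell-like nuclei in both libraries. For Cxcl12 and Cxcr4 they were endothelial-like and lipid-loaded phagocyte-like nuclei, although macrophage-like nuclei were highest for Cxcr4 in PBS. For Cxcl10 and Cxcr3 the source was astrocyte-like in PBS and lipid-loaded phagocyte-like in AEVs, and the receptor class T or NK cell-like in both. These pairs are levels of RNA in nuclei of separate cells, and no contact or signal between them was measured.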

How the data were processed

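The authors deposited a matrix of UMI counts (raw counts per gene and barcode) for each library. The submitters' processing notes name the genome build mm10 and Seurat. For the aligner, the use of strand and introns, and any removal of free RNA, the record is "not given in the sources used here". Nuclei with at least 300 genes, at least 500 UMIs and under 5% mitochondrial UMIs were kept, and Scrublet calls were removed per library (771 nuclei, 5.21%, in PBS and 1400, 8.26%, in AEVs). Counts were scaled to 10000 per nucleus and clustered with scanpy 1.11.5 (python 3.11.15, numpy 2.4.6) on 2000 variable genes per library without the chemokine genes, with 30 components, 20 neighbours and Leiden resolution 1 (leidenalg 0.10.2, igraph 0.11.9). The 28 clusters were named from fixed markers for 19 classes, of which at least 3 had to be at least 2-fold raised, and 13 classes resulted. The rule that scored the markers, including how oligodendrocyte stages were joined, was made after seeing the data, and differences from the study may come from these rebuilt names.

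UMIs were summed per class and library. A ratio was computed at 20 or more UMIs over both libraries, with an exact conditional binomial interval, and shares have exact Clopper-Pearson intervals. With no UMI in AEVs the bound uses 3 UMIs. Class ratios are described where the pooled level of the member was at least 0.25 of that in its highest class and both libraries had at least 25 nuclei. Alternatives were TMM (edgeR 4.0.16, R 4.3.3) and median-of-ratios scaling, a stricter and a looser nucleus filter, doublets kept, a mean over nuclei, thinning to 1000 UMIs, the same mix of clusters, Leiden resolutions 0.5 and 2, and the chemokine genes among the clustering genes. Leaving out the top nucleus, and the values by sub-cluster and finer cluster, were added after seeing the data. On simulated Poisson counts for all nuclei, 95.2% of intervals for 4-fold and 95.6% for 0.25-fold changes covered the true ratio, pooled over 40 draws. The intervals assume the same model, so this checks the code only. It cannot show coverage where few nuclei hold most UMIs. A first version with 1 draw had failed its limit of 90%, with 43 of 49 intervals (87.8%) covering a 0.25-fold change; the draws were then pooled and the limit set to 94%, with the interval code unchanged. The members, gene lists and pairs were chosen with earlier results of these data known. Marker lists, interferon, NF-kappaB, immediate early and other lists are descriptions only. Promoters are from RefSeq. Of the members, 1 is included in the counts of members but is not reported here.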

Additional observations from a re-analysis of the deposited data

Results flagged for a closer look

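Ccl6 had log2 ratios of opposite sign in myeloid classes, 1.57 in macrophage-like and 0.49 in microglia-like nuclei against -1.29 in lipid-loaded phagocyte-like nuclei, which was -0.25 at Leiden resolution 2. The nuclei with a Ccl6 UMI were 28 and 34 in the macrophage-like class and 125 and 47 in the lipid-loaded phagocyte-like class, PBS first. With 1 library per group the difference between classes was not tested.

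Cxcl10 had a log2 ratio of 1.10 in lipid-loaded phagocyte-like nuclei and of -1.81 in astrocyte-like, -5.12 in fibroblast-like and -2.80 in ependymal-like nuclei, the last as a bound against 3 UMIs. The UMIs came from 8 and 14, 25 and 21, 19 and 1, and 3 and 0 nuclei of PBS and AEVs. This difference between classes was not tested either.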

How the results depend on the processing

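Of 104 ratios, 29 were past 2-fold, of which 24 kept their sign in every setting that gave a value and 13 stayed past 2-fold. The 4 members at least 2-fold higher over all nuclei were 2 with the mean over nuclei, and the 8 lower were 4 with the same mix of clusters. That mix also moved the median of the ligands from -0.07 to 0.046, that of the receptors from -0.10 to 0.18 and Cxcr3 to 0.20. Of the class values, 8 were at least 2-fold higher, against 4 with the stricter nucleus filter and 3 at Leiden resolution 0.5. The highest class was the same for 18 of 38 members with that filter and 17 at that resolution, both of which lost classes: neither gave a macrophage-like or T or NK cell-like cluster, and T or NK cell-like nuclei were also lost with doublets kept. Signs reversed for Ccl12 in lipid-loaded phagocyte-like nuclei at resolution 2 (-0.84), Cxcl1 in endothelial-like nuclei with the mean over nuclei (0.38), Cxcl10 in ependymal-like nuclei without the top nucleus (0.83) and Cxcl10 in lipid-loaded phagocyte-like nuclei with the stricter filter (-1.51). The cause was not tested for any of these, and at resolution 2 the lipid-loaded phagocyte-like class held 355 PBS and 134 AEVs nuclei. TMM and median-of-ratios scaling moved all ratios over all nuclei by -0.09 and -0.10. No paired analysis was possible because each group is 1 library. Depth limits members under 20 UMIs and the T or NK cell-like class, with 31 AEVs nuclei.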
